A study of Mus musculus with 6 samples.

Results

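The Notch receptors, ligands and targets described here are 10 named genes of the 19320 in the expression table. They are the 4 receptor genes Notch1, Notch2, Notch3 and Notch4, the 3 ligand genes Dll4, Jag1 and Jag2, and the 3 target genes Hey1, Heyl and Hes1. The rows were taken by gene symbol, and all 10 had reads in every library and passed the filter on low values. The RNA came from samples labelled as mouse heart, in 3 groups of 2 samples, each at 2 weeks. The sham group was wild type and had sham surgery. The TAC group was wild type and had transverse aortic constriction, a narrowing of the aorta that makes the left ventricle pump against a higher pressure. The knockdown group had the same constriction together with knockdown of Snai1, which the series' design text writes as shSnai1. No source used here says how the knockdown was delivered or in which cells it acted, or gives the strain, sex and age of the mice. The labels do not say whether the 2 samples of a group were separate mice, so p-values measure only the spread between these samples, which may be technical.

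Notch receptors sit in the cell membrane and bind ligands of the Delta and Jagged families on a neighbouring cell. Binding lets the protease ADAM10 and then the gamma-secretase complex cut the receptor, and the freed intracellular part enters the nucleus, joins the DNA-binding protein RBPJ and Mastermind coactivators, and switches on repressor genes of the Hes and Hey families. In blood vessels Notch1, Notch4 and Dll4 are known from endothelial cells and Notch3 from smooth muscle cells and pericytes. Notch signalling also raises Snai1 in the endocardium when heart valves form, by a transition of endothelial cells to mesenchyme. The values here are transcript levels, which do not measure how much receptor was cut.

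The 2 deposited columns of each group were not separate libraries but resolved as mixtures, 60% of the first and 40% of the second library in the first column and the reverse in the second. Resolving them gave whole read counts for 99.9% of 115920 values and 0 negative values. All values below come from the resolved libraries, which held between 14835957 and 18247812 reads, and levels are in CPM (reads per 1000000 reads of the library). Between 201 and 1424 reads fell on each Notch gene in each library. Snai1 itself had 76 and 60 reads in the sham pair, 81 and 73 in the TAC pair and 52 and 50 in the knockdown pair. Scaled to depth these were 5.12 and 3.45, 4.48 and 4.24, and 3.41 and 2.74 CPM. Both knockdown libraries lay below the other 4, but knockdown replicate 1 only just below sham replicate 2. The knockdown and TAC levels of Snai1 differed by -0.51 ± 0.33 on the log2 scale (SE), which did not pass the test over all genes (limma, Benjamini-Hochberg adjusted p = 0.999). Nor did the difference between knockdown and sham, -0.46 ± 0.33 (limma adjusted p = 0.745). The heart label matched its defining markers: 10 of 10 cardiomyocyte markers had reads in every library and summed to between 87962 and 100034 CPM. Endothelial markers summed to between 1847 and 2321 CPM (12 of 12 with reads in every library), and smooth muscle and pericyte markers to between 1743 and 2087 CPM, with 1 of 10, Tagln, at 0 in at least 1 library.

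None of the 10 Notch genes passed the test in any of the 3 comparisons. Over all 14447 genes tested, 0.159% were called between TAC and sham (0.0831% higher and 0.0761% lower), at an adjusted p below 0.05 in a limma fit of all 6 libraries. Between knockdown and TAC 0% were called, while 300 genes had an unadjusted p below 0.05. Between knockdown and sham 0.242% were called (0.138% higher and 0.104% lower). At these rates a count of 0 among 10 genes is near the background. Measured by the spread between these libraries, the size of the differences was limited more closely. For all 10 genes and all 3 comparisons, the 95% interval of the fold change (moderated standard errors, not widened for the number of genes) stayed inside a log2 of 1 in either direction. That spread may be technical, so the intervals need not cover a difference between mice. The widest bounds were -0.73 for Hey1 and 0.62 for Notch3 between TAC and sham, -0.51 for Notch1 and 0.68 for Jag1 between knockdown and TAC, and -0.76 for Hey1 and 0.83 for Notch3 between knockdown and sham.

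**Figure D1:**
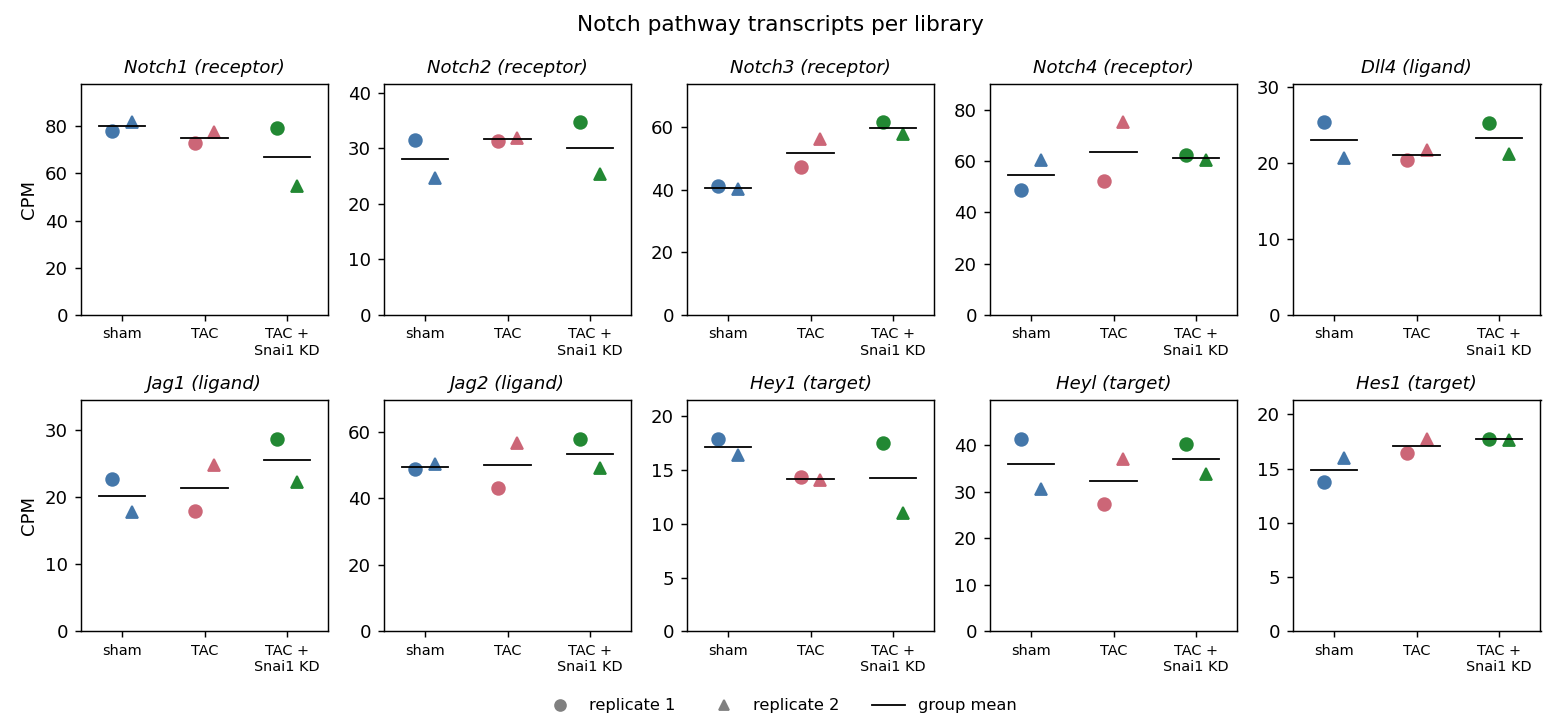
Level of each Notch gene in CPM (vertical axis, from 0, a separate scale per gene) in the 3 groups, with 1 point per library and a line at the group mean. The groups do not separate for most genes; Notch3 is the gene whose 3 groups lie apart, at 40.2 and 41.1 CPM in the sham pair, 47.1 and 56.2 in the TAC pair and 57.7 and 61.6 in the knockdown pair.

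Levels can be set against each other only per length, here in CPM per kilobase of the principal transcript in GENCODE M21. On that scale the mean over the 6 libraries was highest for Hes1 (11.3 CPM per kilobase) and lowest for Notch2 (2.85). In between came Jag2 (9.98), Notch4 (9.08), Notch1 (7.81), Heyl (7.74), Notch3 (6.32), Hey1 (6.28), Dll4 (5.98) and Jag1 (3.99). The ranges over libraries of neighbours in this order overlapped, except for Dll4 (5.44 to 6.76) and Jag1 (3.17 to 5.12), which did not. Notch2 was below the other 3 receptors in every library.

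Among the receptors, Notch3 differed most between groups. Notch3 encodes the receptor of vascular smooth muscle and pericytes that is mutated in the human small vessel disease CADASIL, and the gene lies on chromosome 17 from 32120820 to 32166852 (minus strand, GRCm38). It stood at 41.1 and 40.2 CPM in the sham pair, 47.1 and 56.2 in the TAC pair and 61.6 and 57.7 in the knockdown pair. Every TAC library was above both sham libraries, and both knockdown libraries were above both TAC libraries. Between TAC and sham the log2 fold change was 0.34 ± 0.13 (SE, 95% interval 0.06 to 0.62), with an unadjusted p of 0.0200 and an adjusted p of 0.395 (limma). Between knockdown and TAC it was 0.21 ± 0.13 (interval -0.07 to 0.49, limma adjusted p = 0.999). Knockdown and sham, the pair farthest apart, differed by 0.55 ± 0.13 (interval 0.27 to 0.83), a 1.46-fold difference. By its unadjusted p of 0.000792 Notch3 ranked 75 of 14447 genes there, and its adjusted p was 0.153 (limma), so it was not called. The last comparison shares its libraries with the other 2 and adds no separate evidence. Separation of 2 groups without overlap was common in these data. Of all genes tested, 23.8% had both TAC libraries above both sham libraries. Both knockdown libraries lay above both TAC libraries in 16% and above both sham libraries in 25.5%. The share of genes with all 3 groups apart in the order of Notch3 was not counted.

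Notch1, a receptor gene known in the cardiovascular system from arterial endothelium and heart valves, lies on chromosome 2 from 26457903 to 26516663 (minus strand, GRCm38). It had 78.1 and 81.8 CPM in the sham pair, 73.0 and 77.5 in the TAC pair and 79.3 and 54.7 in the knockdown pair. The TAC libraries lay below the sham libraries by a small margin, and the low value with knockdown belonged to replicate 2 alone. Log2 fold changes were -0.09 ± 0.15 between TAC and sham, -0.19 ± 0.15 between knockdown and TAC, and -0.28 ± 0.15 between knockdown and sham, with limma adjusted p of 0.893, 0.999 and 0.639. Without knockdown replicate 2 the difference between knockdown and TAC was 0.08. An annotated transcript on the opposite strand, 0610009E02Rik, had between 6 and 18 reads against 999 to 1424 for Notch1. Since no source used here states the strand setting, reads in the overlap of these genes cannot be told apart. The same holds for Gm13568 (over Notch1), Gm17276 (over Notch3) and Gm20462 (over Notch4), annotated on the opposite strand and without a row in the expression table.

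The ratio of Notch3 to Notch1 reads within a library does not depend on how libraries are scaled. It was 0.526 and 0.492 in the sham pair, 0.646 and 0.726 in the TAC pair and 0.776 and 1.05 in the knockdown pair, so that the groups did not overlap. The pair was chosen after the values were seen, and the share of other gene pairs that separate in this way was not counted. The ratio of 1.05 belongs to knockdown replicate 2, where Notch1 was low (54.7 CPM, with 79.3 in replicate 1). With 2 libraries against 2, an exact two-sided permutation test cannot give a p below 0.333, the value found in each comparison. As a share of the summed receptor level per kilobase, Notch3 made up 21.6 and 19.9% in the sham pair, 24.0 and 23.7% in the TAC pair and 26.6 and 29.3% in the knockdown pair. Notch1 made up 34.7 and 34.3%, 31.4 and 27.6%, and 29.0 and 23.5% in the same order. Shares of one total move against each other by construction.

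**Figure D2:**
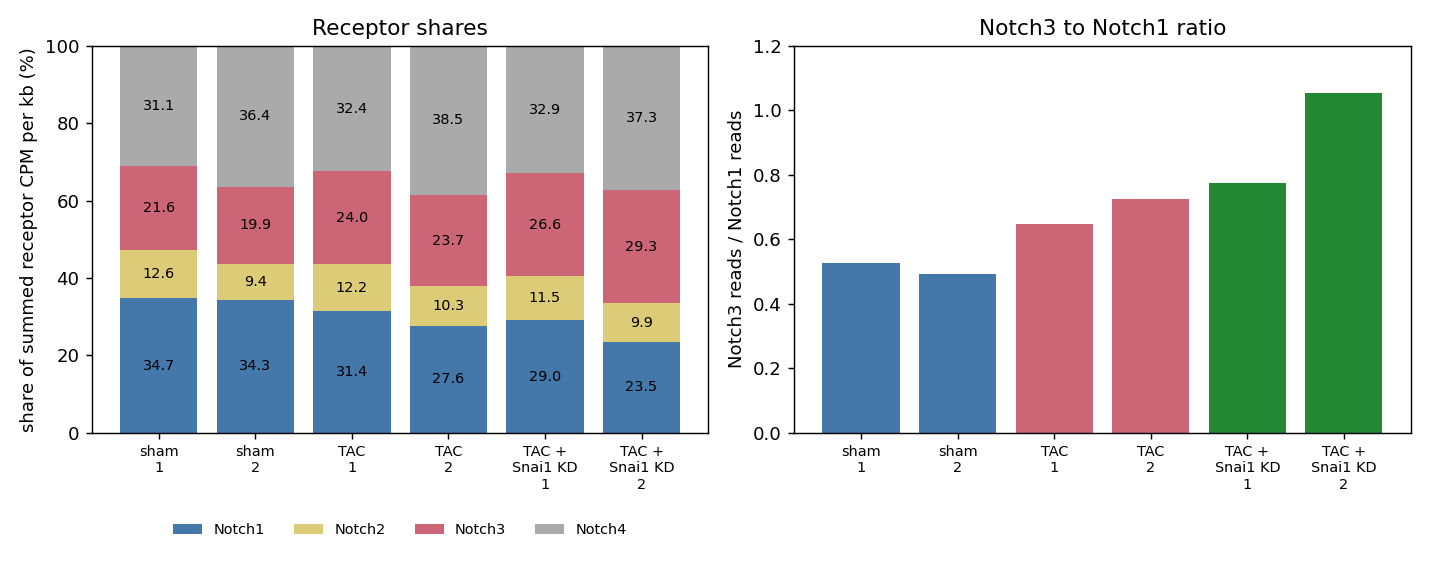
Left, share of each receptor (percent of the summed CPM per kilobase of the 4 receptor genes, vertical axis) in each of the 6 libraries; right, Notch3 reads divided by Notch1 reads in the same libraries. The Notch3 share was 19.9 to 21.6% in sham, 23.7 to 24.0% in TAC and 26.6 to 29.3% with knockdown. The ratio went from 0.492 in sham replicate 2 to 1.05 in knockdown replicate 2, the library with the low Notch1 level.

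The promoters of these receptors are shown because the Notch3 to Notch1 ratio, like the Notch3 level itself, is a measure in which the groups did not overlap. Notch3 was not called in any comparison, and a link between the motifs below and these levels was not tested. Of the 10 genes, 7 had an entry in the RefSeq promoter table (GRCm38.p6), each 300 bases long with 250 before the start site. Hey1, Heyl and Hes1 had none. Capitals mark the N-box (letters CACNAG, or CTNGTG on the other strand), a motif that Hes repressors bind, in the window of Notch3 at chr17:32166841-32167140 and of Notch1 at chr2:26503773-26504072, both on the minus strand and printed in the direction of the gene. The start site of Notch1 in RefSeq lies inside the gene as GENCODE M21 draws it, which begins farther upstream.
Notch3: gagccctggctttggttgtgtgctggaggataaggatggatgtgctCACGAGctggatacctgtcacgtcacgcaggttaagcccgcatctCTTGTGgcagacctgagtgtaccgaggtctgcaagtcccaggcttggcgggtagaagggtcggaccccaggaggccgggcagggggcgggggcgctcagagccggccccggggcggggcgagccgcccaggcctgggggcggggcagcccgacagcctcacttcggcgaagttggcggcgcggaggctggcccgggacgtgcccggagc
Notch1: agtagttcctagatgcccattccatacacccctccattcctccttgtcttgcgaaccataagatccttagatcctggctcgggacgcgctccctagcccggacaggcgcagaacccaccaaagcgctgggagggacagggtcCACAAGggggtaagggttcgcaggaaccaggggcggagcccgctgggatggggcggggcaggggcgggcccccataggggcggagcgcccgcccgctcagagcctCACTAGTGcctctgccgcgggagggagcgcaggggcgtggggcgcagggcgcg
The Notch3 window held 2 N-boxes, at positions -204 and -159 from the start site. The Notch1 window held 3, at positions -108, -3 and -1, of which the last 2 lie on opposite strands and overlap. An N-box was found in 4 of the 7 member promoters (also Notch2 and Dll4) and in 42.5% of 32851 RefSeq promoter windows of the same length. The E-box that Snail binds (CAGGTG, or CACCTG) was in 0 of the 7 and in 20.2% of all windows, and the core of the RBPJ motif (TGGGAA, or TTCCCA) in 0 of the 7 and in 25.6%. The E-box CACGTG, which Hey repressors bind, was in 0 of the 7 and in 7.15%. A missing match says only that these letters are not in these windows.

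Notch4, a receptor gene expressed mainly in endothelium, had 48.6 and 60.4 CPM in the sham pair, 52.3 and 75.2 in the TAC pair and 62.5 and 60.3 in the knockdown pair. The TAC replicates were farther apart than any of the group means, and all groups overlapped. Its log2 fold changes were 0.21 ± 0.16 between TAC and sham and -0.03 ± 0.16 between knockdown and TAC (limma adjusted p = 0.726 and 0.999). Notch2, a broadly expressed receptor gene, had 31.5 and 24.8 CPM in the sham pair, 31.3 and 31.9 in the TAC pair and 34.7 and 25.5 in the knockdown pair. Sham and knockdown each held a high and a low library, and the TAC values lay near the top of the sham range and inside the knockdown range. The log2 fold changes of Notch2 were 0.18 ± 0.17 and -0.09 ± 0.17 in the same comparisons (limma adjusted p = 0.789 and 0.999).

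The ligand genes showed no separation of the groups. Dll4, the Delta-family ligand of arterial endothelium and of sprouting tip cells, had 25.3 and 20.6 CPM in the sham pair, 20.4 and 21.7 in the TAC pair and 25.2 and 21.2 in the knockdown pair. Jag1, whose human counterpart is mutated in Alagille syndrome, had 22.6 and 17.8 CPM in the sham pair, 18.0 and 24.8 in the TAC pair and 28.7 and 22.3 in the knockdown pair. Jag2, the other Jagged-family ligand, had 48.7 and 50.2 CPM in the sham pair, 43.2 and 56.7 in the TAC pair and 57.9 and 49.0 in the knockdown pair. In all 3 ligand genes the ranges of the groups overlapped in every comparison. The largest ligand difference between knockdown and TAC was that of Jag1, 0.26 ± 0.20 on the log2 scale (interval -0.16 to 0.68, limma adjusted p = 0.999), and it was 0.03 without TAC replicate 1. Between TAC and sham the log2 fold changes were -0.12 ± 0.17 for Dll4, 0.07 ± 0.20 for Jag1 and 0.00 ± 0.15 for Jag2 (limma adjusted p from 0.862 to 0.998). Gm14207, an annotated transcript on the strand opposite to Dll4, had between 0 and 20 reads in a library.

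The targets did not share a direction between TAC and sham. Hes1, a repressor gene that many signals besides Notch also induce, had 13.8 and 16.0 CPM in the sham pair, 16.5 and 17.7 in the TAC pair and 17.8 and 17.6 in the knockdown pair. Both TAC and both knockdown libraries were above both sham libraries. Of all genes, 23.8% lay above sham without overlap in TAC and 25.5% with knockdown. The knockdown values of Hes1 lay close to TAC replicate 2. Hes1 differed by 0.20 ± 0.17 on the log2 scale between TAC and sham, 0.05 ± 0.17 between knockdown and TAC and 0.26 ± 0.17 between knockdown and sham (limma adjusted p = 0.751, 0.999 and 0.722). Hey1, a repressor gene of arterial endothelium and endocardium, had 17.9 and 16.4 CPM in the sham pair, 14.4 and 14.1 in the TAC pair and 17.6 and 11.02 in the knockdown pair. The TAC libraries lay below the sham libraries, as they did for 16.3% of all genes tested, and the knockdown libraries lay on both sides of the TAC libraries. Its log2 fold change between TAC and sham was -0.27 ± 0.21 (interval -0.73 to 0.19, limma adjusted p = 0.735). Heyl, a related repressor gene known from vascular smooth muscle, had 41.4 and 30.7 CPM in the sham pair, 27.3 and 37.1 in the TAC pair and 40.2 and 33.9 in the knockdown pair. For Heyl the libraries of a group were farther apart than any of the group means, and its log2 fold changes were -0.16 ± 0.18 between TAC and sham and 0.21 ± 0.18 between knockdown and TAC (limma adjusted p = 0.820 and 0.999).

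**Figure D3:**
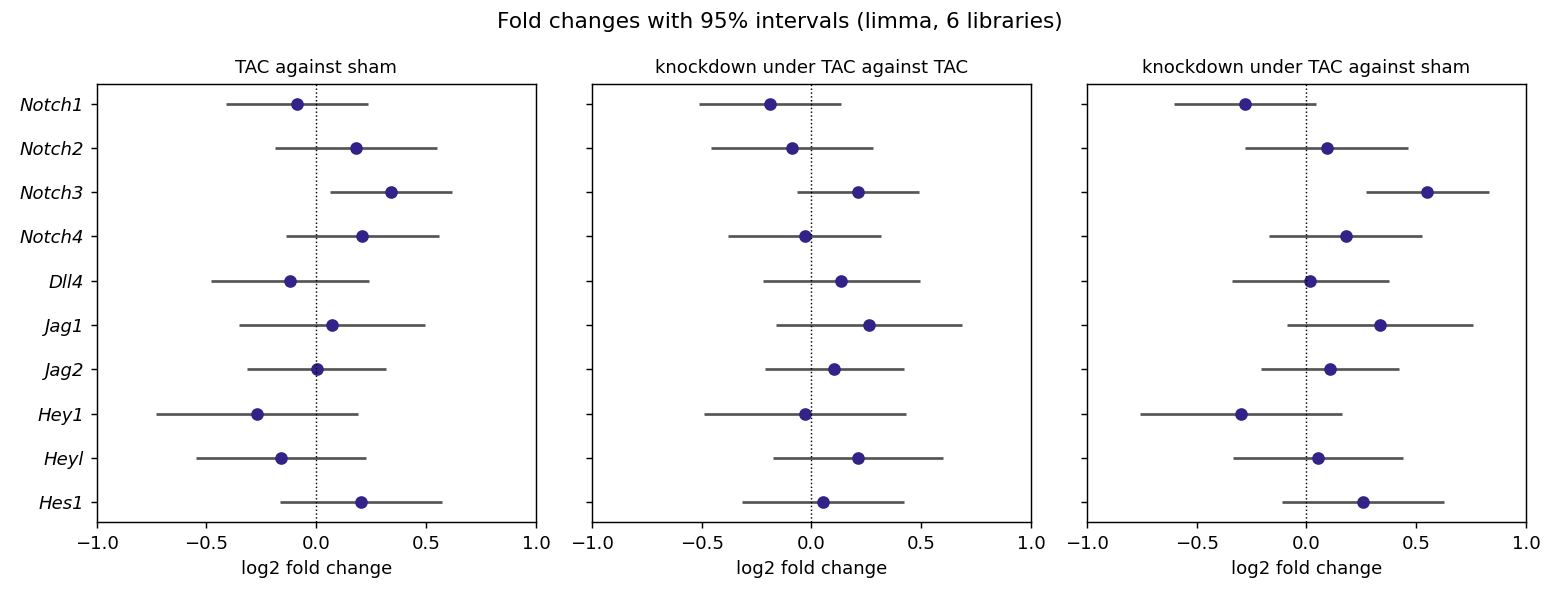
Log2 fold change of each of the 10 Notch genes (points) with its 95% interval from limma (lines) in the 3 comparisons. All intervals lie between -0.76 and 0.83, and the interval leaves out 0 only for Notch3, between TAC and sham (0.06 to 0.62) and between knockdown and sham (0.27 to 0.83).

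Counted together, 6 of the 10 genes had a positive and 4 a negative fold change between TAC and sham, with a median of 0.04 on the log2 scale and the same median over all genes tested. Between knockdown and TAC the counts were also 6 and 4, with a median of 0.08 against 0.02 over all genes. Between knockdown and sham 8 were positive and 2, Notch1 and Hey1, negative, with a median of 0.10 against 0.05. The groups did not overlap for 2 genes above and 2 below sham in TAC, where 23.8% and 16.3% of all genes (40.1% in either direction) did so. Between knockdown and TAC this held for 1 gene, Notch3, above and 0 below, where 28.4% of all genes were apart in either direction (12.4% below), and between knockdown and sham for 2, Notch3 and Hes1, above and 0 below, where 39.3% were apart in either direction (13.9% below). These shares are near the background. At an unadjusted p below 0.05, 1 member (Notch3) passed between TAC and sham, 0 between knockdown and TAC and 1 (Notch3) between knockdown and sham, beside 9.57%, 2.08% and 8.8% of all genes.

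Libraries of the same group differed in most of these genes together. In the TAC group 9 of 10 Notch genes were higher in replicate 2 than in replicate 1, as were 59.8% of all genes, and the median difference was 0.18 on the log2 scale against 0.07 over all genes. In the knockdown group all 10 were lower in replicate 2, with a median of -0.25 against -0.07 over all genes, of which 39.4% were higher. The sham replicates showed no such common direction, with 4 of 10 higher in replicate 2. The largest differences between libraries of 1 group were those of Hey1 (-0.67) and Notch1 (-0.53) in knockdown and Notch4 (0.52) in TAC, all as replicate 2 minus replicate 1 on the log2 scale. The median size of the difference in these 10 genes was 0.26 in sham, 0.18 in TAC and 0.25 with knockdown. For the 6535 genes with a mean of 200 to 1500 reads it was 0.16, 0.15 and 0.15.

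Markers of vessels, fibroblasts and macrophages were also highest in TAC replicate 2 and knockdown replicate 1. Endothelial markers summed to 1958 and 1891 CPM in the sham pair, 1847 and 2305 in the TAC pair and 2321 and 2029 in the knockdown pair. Smooth muscle and pericyte markers summed to 1861 and 1743, 1757 and 1900, and 2087 and 1821 CPM in the same order, a sum in which Rgs5 and Abcc9 weigh most. Their means in sham, TAC and knockdown were 664, 705 and 799 CPM for Rgs5 and 543, 444 and 484 CPM for Abcc9. The means of the other groups were thus above sham for Rgs5 and below it for Abcc9, and a ratio to this sum depends on the markers chosen. Cardiomyocyte markers were lowest, at 87962 CPM, in knockdown replicate 1. In RNA from whole tissue, fewer cells of a type and less RNA per cell cannot be told apart, and the part that vessel content played in the levels of the Notch genes was not tested. None of the 12 endothelial and 10 smooth muscle and pericyte markers was called in any comparison. Between knockdown and sham, 7 of the 10 smooth muscle and pericyte markers had both knockdown libraries above both sham libraries and 2 had both below, where 25.5% and 13.9% of all genes did so. Among the 7 was Tagln, with means of only 0.62 CPM with knockdown and 0.29 in sham. The 2 below were Cnn1 (-0.63 on the log2 scale) and Abcc9 (-0.17), and Myh11 was also negative (-0.19), with overlap. The median log2 fold change of the 10 markers was 0.28, with 0.05 over all genes and 0.55 for Notch3. Of the 12 endothelial markers, 6 were above and 1 below without overlap, with a median of 0.20. Per 100 CPM of smooth muscle and pericyte markers, Notch3 stood at 2.21 and 2.31 in the sham pair, 2.68 and 2.96 in the TAC pair and 2.95 and 3.17 in the knockdown pair. Per 100 CPM of endothelial markers Notch1 stood at 3.99 and 4.33 in the sham pair, 3.95 and 3.36 in the TAC pair and 3.42 and 2.70 in the knockdown pair. In the ratio of Notch3 the knockdown and TAC groups overlapped narrowly and both lay above sham, and in that of Notch1 they overlapped and both lay below sham. Per 100 CPM of endothelial markers Hey1 stood at 0.916 and 0.866 in the sham pair, 0.778 and 0.610 in the TAC pair and 0.757 and 0.543 in the knockdown pair, with sham above the other groups. Against either marker sum, the ratios of the other members overlapped sham in TAC, in knockdown or in both. For the ratios printed here, an exact two-sided permutation test against sham gave p = 0.333, the lowest that 2 libraries against 2 allow. The share of all genes whose ratio separates in this way was not computed.

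**Figure D4:**
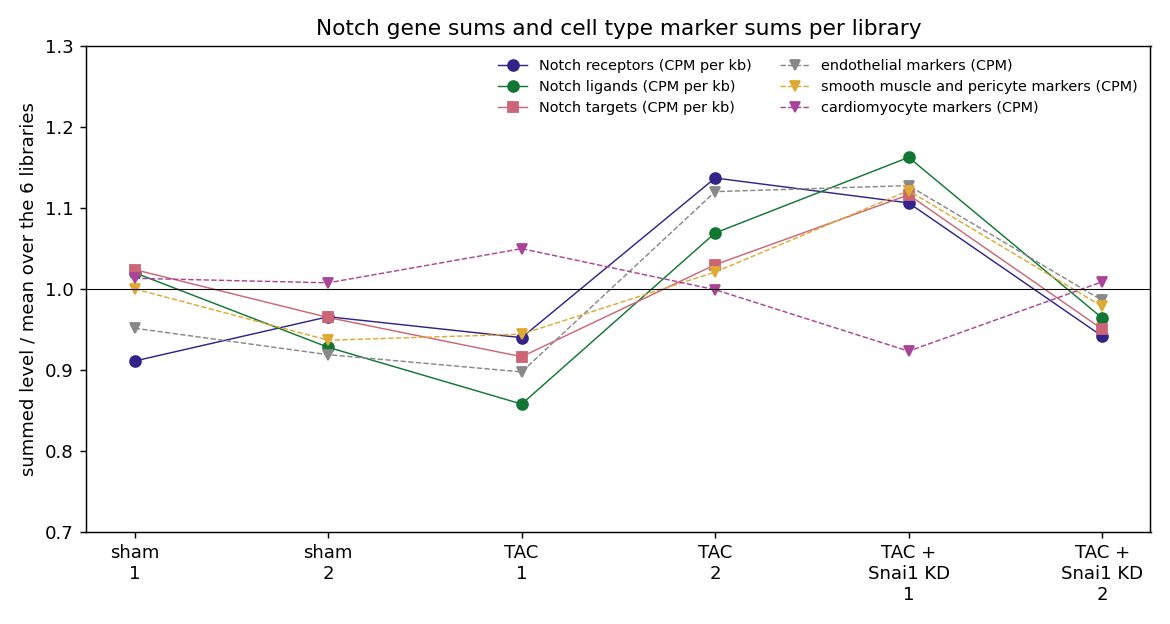
Summed level of the Notch receptors, ligands and targets (CPM per kilobase, solid lines) and of 3 cell type marker lists (CPM, dashed lines) in each library, divided by the mean over the 6 libraries; lines only join the points of a series. TAC replicate 2 and knockdown replicate 1 are the highest libraries for receptors, ligands, targets and endothelial markers.

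Macrophage markers summed to 364 and 317 CPM in the sham pair, 466 and 574 in the TAC pair and 743 and 512 in the knockdown pair. Genes sensitive to tissue handling summed to 289 and 413, 188 and 161, and 216 and 137 CPM, and lymphocyte markers to 12.8 CPM in sham replicate 1 against 1.88 to 4.26 in the other 5 libraries. Fibroblast markers summed to 1706 and 1488 CPM in the sham pair, 1371 and 1874 in the TAC pair and 1740 and 1543 in the knockdown pair, and overlapped between all groups. Erythroid and platelet markers were highest in sham replicate 1 (1789 CPM, with 767 to 1136 in the other libraries), and atrial markers ranged from 178 to 479 CPM. Arterial endothelial markers summed to between 249 and 321 CPM, with TAC replicate 2 highest. Between TAC and sham 1 of 10 macrophage markers was called higher (0.0831% of all genes). Called lower were 2 of 8 erythroid and platelet markers and 1 of 10 handling genes (0.0761% of all genes). Between knockdown and sham the counts called were 2, 1 and 2 in the same order and directions (limma, adjusted over all genes). Of all genes, 0.138% were called higher and 0.104% lower there. Between knockdown and TAC the counts called were 0. Without regard to calls, TAC lay above sham without overlap for 8 of 10 macrophage markers (23.8% of all genes). It lay below for 7 of 8 erythroid and platelet markers and 6 of 10 handling genes (16.3% of all genes). The part of these markers in the levels of the Notch genes was not tested.

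The rest of the pathway was described with a list of 61 further genes grouped by role, of which 59 were in the table and 53 were tested. None of the 53 was called in any comparison. The median log2 fold change of these genes was 0.01 between TAC and sham, -0.01 between knockdown and TAC and -0.01 between knockdown and sham. The ligand genes Dlk1, Dlk2 and Dner and the Hes-family genes Hes2, Hes5 and Hes7 had too few reads to be tested.

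Signal-sending genes came first in the list. Dll1, the remaining tested Delta-family ligand, had 5.06 and 7.58 CPM in the sham pair, 5.69 and 4.12 in the TAC pair and 8.46 and 5.70 in the knockdown pair, so that knockdown was above TAC by 0.52 ± 0.31 on the log2 scale (limma adjusted p = 0.999). Of the genes that ubiquitinate ligands and take them up, Neurl1b had the smallest p between TAC and sham (0.39 ± 0.26) and Mib2 between knockdown and TAC (-0.23 ± 0.14). Among the enzymes that put sugars on the receptors, Pofut1, the O-fucosyltransferase, had 17.2 and 15.5 CPM in the sham pair, 19.8 and 22.8 in the TAC pair and 21.6 and 18.1 in the knockdown pair. Its TAC values lay above its sham values without overlap, as did those of 23.8% of all genes, with a difference of 0.38 ± 0.17 (limma adjusted p = 0.5). Lfng, a fringe glycosyltransferase, differed by 0.32 ± 0.23 between knockdown and TAC (limma adjusted p = 0.999).

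Receptor-cutting genes had a median log2 fold change of 0.06 over 9 genes between TAC and sham, and Ncstn, a gamma-secretase subunit, had the smallest p (0.21 ± 0.11, limma adjusted p = 0.577). Aph1b, another gamma-secretase subunit, had 11.6 and 10.8 CPM in the sham pair, 11.7 and 12.2 in the TAC pair and 8.39 and 7.67 in the knockdown pair. Both knockdown libraries were below the other 4. Of all genes, 12.4% had both knockdown libraries below both TAC libraries, and 13.9% had them below both sham libraries. The difference of Aph1b between knockdown and TAC was -0.57 ± 0.20 on the log2 scale with an unadjusted p of 0.0138 (limma adjusted p = 0.999). An unadjusted p below 0.05 was found there for 2.08% of all genes. Aph1a, which encodes the alternative subunit, stood at 55.1 and 44.1 CPM in the sham pair, 52.3 and 51.6 in the TAC pair and 46.5 and 51.8 in the knockdown pair.

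Rbpj, the DNA-binding partner of all 4 receptors, had 42.2 and 40.4 CPM in the sham pair, 45.3 and 45.0 in the TAC pair and 44.1 and 47.3 in the knockdown pair (0.13 ± 0.13 on the log2 scale between TAC and sham, limma adjusted p = 0.791). Snw1, which binds the intracellular part of the receptor, differed by -0.23 ± 0.14 between knockdown and TAC. Of 8 genes of co-repressors that act with RBPJ when no Notch signal is present, 7 had a negative fold change between TAC and sham (median -0.26, with 0.04 over all genes) and 5 had TAC below sham without overlap, as did 16.3% of all genes, but none was called. Hdac1, a histone deacetylase, had the smallest p of these genes between knockdown and TAC (0.24 ± 0.21).

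Genes listed here as negative regulators had a median of 0.26 between TAC and sham over 10 genes, with 0.04 over all genes. None was called. The list counts the Deltex genes Dtx1 (0.55), Dtx2 (0.32), Dtx3 (-0.04) and Dtx4 (0.52), and the median depends on that choice. Their action on Notch was not tested. TAC lay above sham without overlap for 4 of the 10 genes (Dtx2, Dtx4, Fbxw7 and Numb) and for 23.8% of all genes. Fbxw7, the ubiquitin ligase subunit that marks the intracellular part of Notch for destruction, had 72.7 and 57.2 CPM in the sham pair, 83.9 and 85.1 in the TAC pair and 69.7 and 69.0 in the knockdown pair. Both TAC libraries were above the other 4. The log2 fold changes of Fbxw7 were 0.39 ± 0.13 between TAC and sham and -0.29 ± 0.13 between knockdown and TAC, with unadjusted p of 0.00879 and 0.0429 and limma adjusted p of 0.318 and 0.999. The comparisons share the TAC libraries. Nrarp, a Notch-induced inhibitor of the pathway, had only 1.10 to 2.63 CPM.

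Among further targets, Myc, which Notch induces in T cells, had 6.07 and 7.47 CPM in the sham pair, 2.49 and 4.06 in the TAC pair and 4.92 and 3.34 in the knockdown pair. All TAC and knockdown libraries were below both sham libraries. Of all genes, 16.3% lay below sham without overlap in TAC and 13.9% with knockdown. The difference of Myc between TAC and sham was -1.08 ± 0.34 on the log2 scale with an unadjusted p of 0.0066 (limma adjusted p = 0.291). Sox9, a transcription factor gene of heart valves and cartilage, stood at 8.02 and 5.92 CPM in the sham pair, 6.63 and 9.35 in the TAC pair and 4.72 and 5.81 in the knockdown pair (knockdown against TAC -0.59 ± 0.28, limma adjusted p = 0.999). Hey2, the remaining Hey gene, had between 4.88 and 7.90 CPM, and Efnb2, an arterial target gene, between 29.6 and 43.4.

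**Figure D5:**
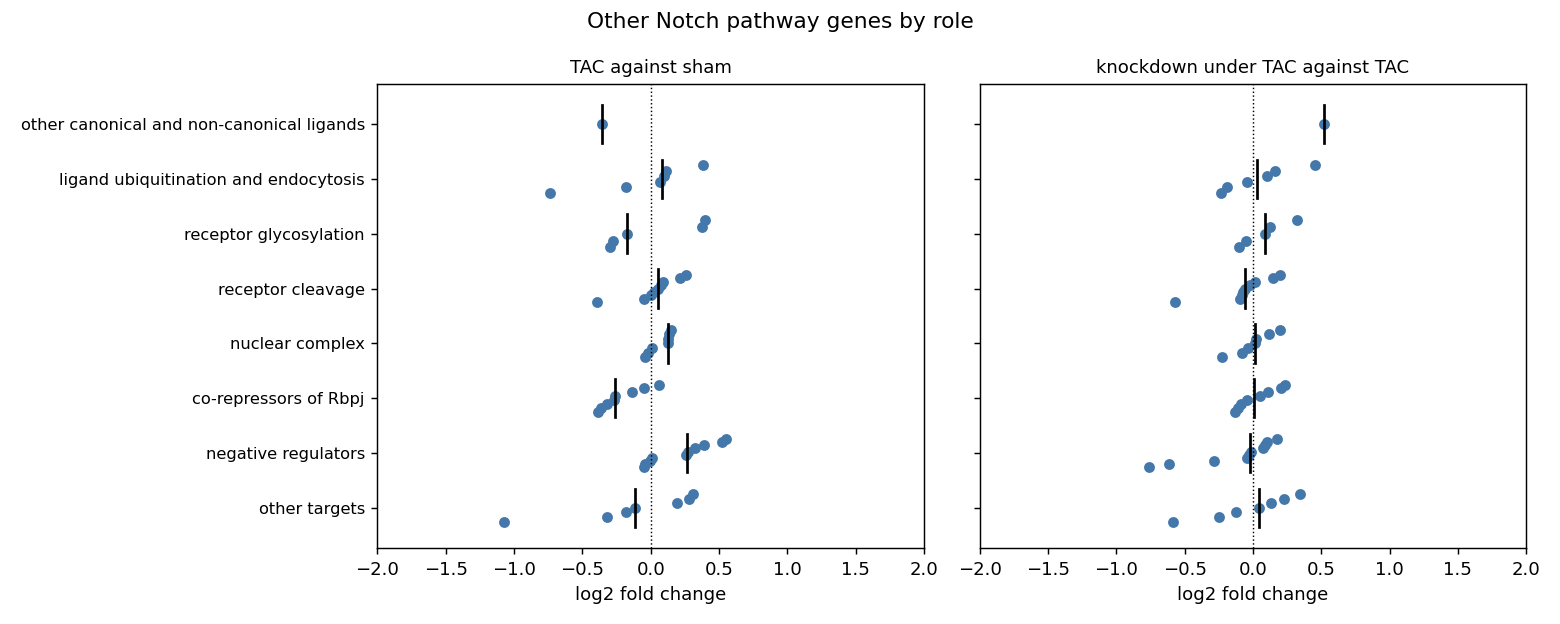
Log2 fold change of each of the 53 tested genes of the rest of the Notch pathway (points), by role, between TAC and sham (left) and between knockdown and TAC (right), with the median of each role as a bar. Between TAC and sham the co-repressor genes have a median of -0.26. The genes listed as negative regulators, with Dtx1, Dtx2, Dtx3 and Dtx4 among them, have one of 0.26. No gene passed the test in either comparison.

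Across the 6 libraries, the genes whose pattern was most like that of a Notch gene were looked up among 5240 other genes that averaged 500 reads or more, by Pearson's r of log2 CPM. With 6 libraries and so many candidates, high values of r are found for any gene, and they are given as a description without a test. For Notch3 the nearest were Sec13 (0.99), Hspa5 (0.986) and Pla2g12a (0.981), and for Notch1 they were Pdlim7 (0.983), Dtnbp1 (0.977) and Vamp3 (0.969). For Dll4 they were Cetn3 (0.998), Hnrnpdl (0.987) and Zbtb18 (0.985), and for Hes1 Ctnnb1 (0.998), Npr3 (0.997) and Rps14 (0.988). Hspa5, which encodes the chaperone BiP of the endoplasmic reticulum, had 485 and 487 CPM in the sham pair, 523 and 560 in the TAC pair and 597 and 595 in the knockdown pair, the order of groups seen in Notch3.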

How the data were processed

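Messenger RNA was measured in 6 samples labelled as mouse heart, 2 in each of 3 groups. Per the labels' protocols, TRIzol served for extraction and a SMARTER mRNA-Seq kit for the libraries. Limma (version not given) and the mm10 build are named in the submitters' processing notes. No source used here names the aligner, counting tool, annotation or strand setting. The values deposited by the authors are log2 CPM with 0.5 added to the reads.

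From these, columns were unlogged and resolved as 60% and 40% mixtures (tolerance for a whole count 0.05). Applied to 12 pairs of columns that cross groups, this made only 20.6 to 21.1% of values whole. A library carries the number of the column in which its share is larger. A gene was tested if at least 2 libraries reached the CPM equal to 10 reads at the median depth and all 6 together held 15 reads. This kept 14447 genes and removed 4873. Log2 CPM was fitted with 1 mean per group by limma 3.58.1 in R 4.3.3 (eBayes with trend, 3 residual and 11.3 prior degrees of freedom), with Benjamini-Hochberg adjustment over all genes. Standard errors are those of the fit. Fold changes understate the change of genes with few reads. A count model was not used because the deposited unit is log2, although whole counts were recovered and would have allowed one. The procedure was tested on simulated data, in which genes varied independently and the changes set were larger than those of any Notch gene here. That simulation does not show whether differences of the size seen in the Notch genes would be called.

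Coordinates and transcript lengths are from GENCODE M21 (GRCm38). Named were all 10 members, any pathway gene called, the gene with the smallest p per role between TAC and sham and between knockdown and TAC, and the 3 genes most like 4 of the members; a few others were added after their values were seen. A gene that this rule names is not reported here. The members and lists were chosen with earlier results of these data known. With 2 libraries per group, the members' standard errors ran from 0.13 to 0.21 on the log2 scale. Alternatives changed the scaling, filter, pseudocount (2 reads), weights, groups fitted, replicate block and libraries included.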

Additional observations from a re-analysis of the deposited data

How the results depend on the processing

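No Notch gene was called in any of the 6 fits without 1 library (0 called higher and 0 lower in each comparison), with the smallest adjusted p at 0.146, or with another scaling, filter, pseudocount, weighting, a replicate block or only the compared groups in the fit. In the deposited columns as they stand, where the spread is that between mixtures of the same libraries, 5 Notch genes were called higher and 4 lower between TAC and sham, 5 and 2 between knockdown and TAC, and 6 and 2 between knockdown and sham, among 7638 and 6174, 6593 and 5544, and 7993 and 5676 of all genes. Where a fit leaves a group with 1 library, that library is assumed to vary like the others.

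The replicate number pairs nothing in the labels. Deviations of same-numbered libraries correlated at -0.22 between sham and TAC, 0.13 between sham and knockdown and -0.13 between TAC and knockdown over 5246 genes. With the replicate block 20 genes were called higher and 20 lower between TAC and sham, and 1 higher between knockdown and TAC, none of them a Notch gene.

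Over all genes, 12 were called higher and 11 lower between TAC and sham. These counts became 5 and 4 with no filter and 21 and 21 with 2 reads added, 17 were lower with median ratio scaling, 7 higher with voom weights, and 1 to 27 higher and 3 to 24 lower without 1 library. The 20 higher and 15 lower between knockdown and sham became 7 and 7 with no filter, 13 higher with quantile normalization, 6 higher with voom weights, 9 higher with only the 2 groups in the fit, and 1 to 25 higher and 2 to 25 lower without 1 library. The causes were not tested.

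The signs of some uncalled members turned. Jag2 between TAC and sham (0.00) was -0.034 with median ratio scaling, -0.019 with quantile normalization and -0.0015 with voom weights. Between knockdown and sham Dll4 (0.02) was -0.037 with median ratio scaling and -0.048 with quantile normalization, and Heyl (0.05) was -0.0029 with median ratio scaling. Without 1 library, 5 of 10 members kept their sign in all 6 fits between TAC and sham, 3 between knockdown and TAC (Notch3, Dll4 and Jag1) and 5 between knockdown and sham. Between TAC and sham the ranges of those that turned were -0.052 to 0.47 for Notch4, -0.27 to 0.029 for Dll4, -0.16 to 0.30 for Jag1, -0.19 to 0.20 for Jag2 and -0.38 to 0.059 for Heyl. Between knockdown and TAC they were -0.46 to 0.078 for Notch1, -0.31 to 0.14 for Notch2, -0.29 to 0.23 for Notch4, -0.091 to 0.30 for Jag2, -0.37 to 0.31 for Hey1, -0.0071 to 0.44 for Heyl and -0.00034 to 0.10 for Hes1. Between knockdown and sham they were -0.13 to 0.32 for Notch2, -0.13 to 0.17 for Dll4, -0.014 to 0.23 for Jag2, -0.64 to 0.036 for Hey1 and -0.16 to 0.27 for Heyl. Notch3 ranged from 0.21 to 0.47, from 0.08 to 0.34 and from 0.50 to 0.60 in the 3 comparisons. The median of the members ranged from -0.15 (without TAC replicate 2) to 0.20 (without TAC replicate 1) between TAC and sham. With 201 or more reads per member and library, counting error alone gives a coefficient of variation of 2.84 to 6.28% at the members' mean reads. How much of the spread between libraries comes from depth was not tested.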
